A study of Mus musculus with 18 samples.

Results

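Phosphatidylcholine and phosphatidylethanolamine are the main phospholipids of cell membranes, and in the liver they also coat lipid droplets and secreted lipoproteins. Hepatocytes make both through a pair of parallel branches of the Kennedy pathway, in which ethanolamine or choline is phosphorylated, coupled to CTP by a cytidylyl transferase and joined to diacylglycerol. Hepatocytes also methylate phosphatidylethanolamine to phosphatidylcholine through PEMT. The transcripts of 10 genes of these routes, of 54532 genes in the liver RNA-seq table, were followed across the mice. They comprised the ethanolamine kinases Etnk1 and Etnk2, the cytidylyl transferases Pcyt2 (ethanolamine branch) and Pcyt1a (choline branch), the choline kinases Chka and Chkb, the phosphotransferases Cept1 and Chpt1, the lysophospholipase Pnpla7 and the acyltransferase Lpcat3. The genes were taken by name, and the group was chosen by the measured differences of Pcyt2 and Pnpla7 between SZ-A and HFD, which had passed the test in these mice. The values of SZ-A against HFD are therefore given as a description without a test.

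The livers came from 18 male C57BL/6J mice (C57BL/6 in the sample labels), 6 per group, that were 6 weeks old on arrival. CHOW mice ate a standard diet. HFD mice ate the high-fat diet D12492 for 14 weeks and then received saline with that diet continued. SZ-A mice were fed in the same way and then received the mulberry twig (Ramulus Mori) alkaloids called SZ-A. Treatment ran for 6 weeks or for 8 weeks, since the sources differ, and the dose and route for the sequenced mice were not given in the sources used here. Animals were fasted overnight before the livers were taken, so all levels are those of fasted liver. The sources named no pairing of the mice, and each library stood for 1 mouse.

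The deposited values were FPKM, fragments per kilobase of a gene's exons, scaled to a library size for each mouse. Each mouse had between 17163191 and 20493907 fragments on genes. The library size implied by the values was not a plain total, since in CHOW5 it was 0.9325 times the fragments on genes. This factor was 0.9983 to 1.1414 for HFD mice, against 0.9325 to 1.0248 for CHOW mice and 0.9718 to 1.0468 for SZ-A mice. The values already lay close to a median-ratio scale, with factors of 0.9958 to 1.003. How the library size was set was not tested. The 6 hepatocyte markers were present in every group, and their summed level ranged over 37700 to 56200 FPKM in CHOW, over 23500 to 41800 in HFD, and over 30300 to 53600 in the SZ-A mice. The 5 Kupffer cell markers summed to 79.3 to 163 FPKM in CHOW, 115 to 228 in HFD, while SZ-A mice had 142 to 174. Stellate cell markers (5) had median sums of 38.5, 56.9 and 42.7 FPKM in CHOW, HFD and SZ-A, and adipocyte markers (4) of 45.5, 29.2 and 17.1. The 4 pancreas acinar markers summed to 3.1 to 5.07 FPKM in CHOW, to 4.45 to 8.76 in HFD and to 8.58 to 10.6 in SZ-A. Amy2a5 was at 0 throughout, Cpa1 was at 0 in CHOW and SZ-A, and Prss2 in HFD. Cholangiocyte markers (4) had median sums of 3.33, 2.62 and 2.16 FPKM in CHOW, HFD and SZ-A, and reached 12.3 in SZ-A. The part of these shifts in the results below was not tested, and in bulk liver fewer cells of a type and less RNA per cell cannot be told apart. The mouse CHOW6 is titled as CHOW but carries a high-fat entry in its diet field. It was kept in CHOW by its title, and 6 of its 10 levels lay inside the range of the other 5 CHOW mice. The 4 outside were Chka (5.962 FPKM against at most 4.716), Etnk1 (8.708 against at most 8.103), Chkb (0.1558 against at most 0.121) and Chpt1 (33.96 against at least 34.18). CHOW5 and SZ-A5 stood apart from their groups, with median correlations to group mates of 0.953 for both, against 0.967 to 0.980 for the other 16 mice. Calls on the 10 genes against CHOW, and values that moved by over 1.5 times without 1 of these 3 mice, are given with and without them.

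Promoter sequence, the 250 bases before the annotated start, is shown for 3 of the 4 genes that were lower in HFD than in CHOW, because these genes moved in the same direction. RefSeq (GRCm38.p6) held a promoter for 9 of the 10 genes, and Pcyt2 was not among them. Capitals mark matches on either strand to 4 motifs that were searched, namely the E-box CACGTG, the CCAAT box CCAAT, the sterol response element core TCACCCCAC and the GC box GGGCGG. Each window ends at the base before the gene start given in the deposited table, on the plus strand, and lies at chr1:133363322-133363571 for Etnk2, chr2:24975783-24976032 for Pnpla7 and chr19:3851523-3851772 for Chka.
Etnk2: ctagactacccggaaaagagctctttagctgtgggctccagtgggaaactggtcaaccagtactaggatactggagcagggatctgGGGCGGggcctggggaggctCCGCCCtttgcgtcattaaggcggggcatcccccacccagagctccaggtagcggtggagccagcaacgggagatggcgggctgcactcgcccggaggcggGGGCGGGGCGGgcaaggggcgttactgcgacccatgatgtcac
Pnpla7: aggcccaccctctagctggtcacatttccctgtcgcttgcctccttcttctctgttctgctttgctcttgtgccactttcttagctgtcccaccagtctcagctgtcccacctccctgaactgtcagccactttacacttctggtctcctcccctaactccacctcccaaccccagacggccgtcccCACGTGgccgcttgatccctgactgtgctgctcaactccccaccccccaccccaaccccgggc
Chka: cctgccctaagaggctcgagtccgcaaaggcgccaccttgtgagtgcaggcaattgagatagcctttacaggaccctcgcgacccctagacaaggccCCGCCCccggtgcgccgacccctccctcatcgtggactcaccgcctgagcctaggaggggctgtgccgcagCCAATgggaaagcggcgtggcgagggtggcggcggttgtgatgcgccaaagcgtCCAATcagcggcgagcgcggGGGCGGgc

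These windows shared no motif across all of them. The Etnk2 window held 4 GC boxes, starting at -164, -144, -43 and -38 from the gene start, of which the last pair overlap each other. In Pnpla7 the search found 1 E-box at -63 and no GC box. The Chka window held CCAAT boxes at -82 and -28 and GC boxes at -153 and -8. Across the 9 promoters, 8 held a GC box, 4 a CCAAT box, 1 an E-box and 1, that of Pcyt1a, the sterol response element core. Of 27025 genes, not limited to those expressed in liver, 35.4%, 37.5%, 6.86% and 0.555% held the same motifs in any of their promoters. Each of the 9 genes was read only at the promoter nearest its start, so these shares are not a like measure. A match describes letters in the window and is not a measured binding site.

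FPKM is scaled by the length of all annotated exons of a gene together, so the levels set side by side here are per base of that length. In CHOW liver Etnk2 was the highest of the 10 genes at 113.5 ± 15.45 FPKM (mean ± SD, n = 6 here and below), followed by Pcyt2 at 75.66 ± 12.1, Chpt1 at 39.03 ± 4.622, Lpcat3 at 28.18 ± 2.755, Pnpla7 at 20.68 ± 2.522, Cept1 at 19.89 ± 2.358, Pcyt1a at 10.02 ± 1.891, Etnk1 at 7.204 ± 1.536 and Chka at 3.915 ± 1.269. Neighbours in that order had overlapping ranges between Etnk2 and Pcyt2, Pnpla7 and Cept1, Pcyt1a and Etnk1, and Etnk1 and Chka. In HFD liver the ranges of Etnk2, Pcyt2 and Chpt1 overlapped, at means of 55.54, 47.44 and 45.36 FPKM, and Pnpla7 at 10.64 FPKM stood below Cept1 (21.8) and overlapped Pcyt1a (11.77). In SZ-A liver Etnk2 (66.08) and Pcyt2 (65.25) overlapped again and both lay above Chpt1 (33.06), which overlapped Lpcat3 (29.77). Chkb was barely detected, with 2 to 10 fragments per mouse and a median of 5.

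**Figure D1:**
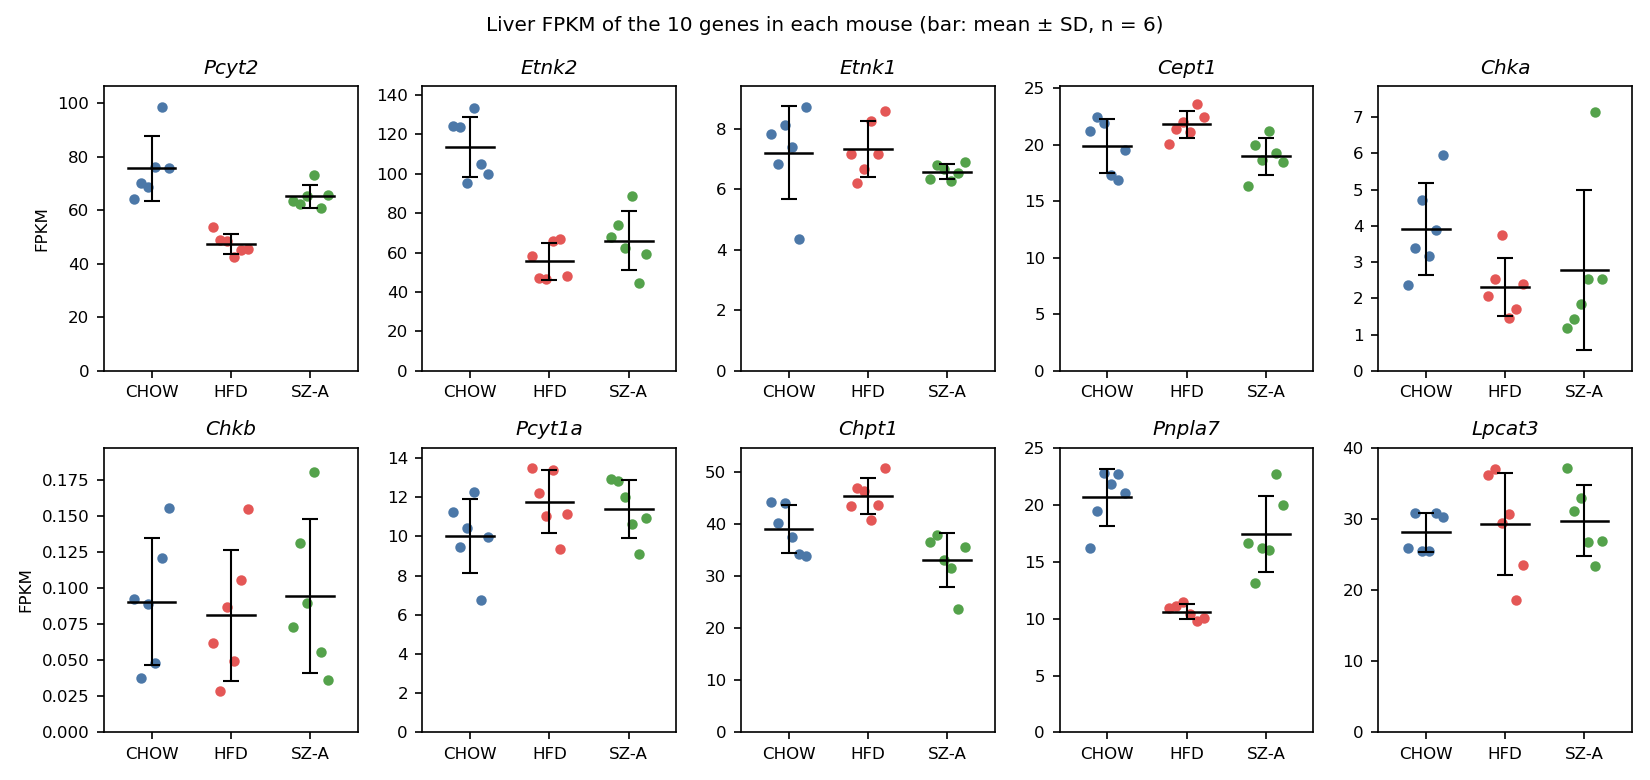
FPKM of each of the 10 genes (y axis, starting at 0, with its own scale per gene) in the 6 mice of CHOW, HFD and SZ-A (x axis). Points are mice, bars are mean ± SD. HFD points lie below all CHOW points for Pcyt2, Etnk2 and Pnpla7, and 1 CHOW mouse (98.59 for Pcyt2) and 1 SZ-A mouse (7.156 for Chka) stand apart.

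The comparison of HFD with CHOW addressed what the diet changed. Levels were tested with limma on log2(FPKM + 0.1), and a gene was called when its adjusted p was under 0.05 and its fold over 1.2. Of the 9 members with a mean of at least 1 FPKM, 4 were called and all 4 were lower in HFD: Etnk2, Pnpla7, Pcyt2 and Chka. Over all 10216 genes tested, 20.2% were called, with 1092 (10.7%) higher and 970 (9.49%) lower. The median log2 fold change was 0.02 over the 9 members and -0.03 over all genes. The ranges of the groups did not overlap for 3 of the 9 members, all with HFD lower, against 10.5% of all genes (5.48% with HFD wholly higher and 4.97% with HFD wholly lower). Without CHOW6, or without CHOW5, 3 of 9 were called and Chka was not. Both counts include Pcyt2 and Pnpla7, which a contrast with the same HFD mice brought forward, so they are not independent of the choice.

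In the ethanolamine branch, the first enzymes are the kinases that trap ethanolamine inside the cell as phosphoethanolamine. Etnk2 (ENSMUSG00000070644, chr1:133363572-133380336 in GRCm38), the abundant liver form, ranged from 95.26 to 133.1 FPKM in CHOW with a median of 114.4. The HFD mice ran from 46.62 to 67.07 with a median of 53.37. Every HFD mouse lay below every CHOW mouse, and the mean fell by 51.1%. The log2 fold change was -1.04 ± 0.12 (SE, adjusted p = 0.000164), -1.07 without CHOW6 (adjusted p = 0.000307) and -1.06 without CHOW5 (adjusted p = 0.000304). Etnk1 (ENSMUSG00000030275, chr6:143167221-143232307), the other kinase, had 4.346 to 8.708 FPKM in CHOW, 6.188 to 8.579 in HFD, while SZ-A mice held a narrow 6.266 to 6.897. Its log2 difference between HFD and CHOW was 0.05 ± 0.15 (SE, adjusted p = 0.847), and it turned to -0.09 without CHOW5, the mouse with the lowest value, and was 0.11 without CHOW6. Within a mouse, the ratio of Etnk2 over Etnk1 was 11.45 to 24.17 in CHOW and 5.628 to 9.362 in HFD, with no overlap.

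Pcyt2 (ENSMUSG00000025137, chr11:120610087-120617936) makes CDP-ethanolamine and is regarded as the rate-limiting step of its branch. CHOW1 to CHOW6 had 64.39, 70.24, 68.64, 76.17, 98.59 and 75.90 FPKM. HFD1 to HFD6 had 53.77, 48.80, 48.62, 42.61, 45.26 and 45.59 FPKM. The groups did not overlap, and CHOW5 lay far above the other CHOW mice. The mean fell by 37.3% in HFD, with a log2 fold change of -0.66 ± 0.10 (SE, adjusted p = 0.000741). Without CHOW5 it was -0.58 (adjusted p = 0.000382) and without CHOW6 -0.66 (adjusted p = 0.00167). These HFD mice also served in the contrast that brought Pcyt2 and Pnpla7 forward, so the HFD levels of these genes are not independent of the choice.

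The last step of the ethanolamine branch is carried out by Cept1 (ENSMUSG00000040774, chr3:106502260-106547802), which accepts both CDP-ethanolamine and CDP-choline. It had 16.92 to 22.44 FPKM in CHOW and 20.09 to 23.63 in HFD. The difference was 0.14 ± 0.08 on the log2 scale (SE, adjusted p = 0.267) and was not called. Of its exon bases, 24.7% are also exons of Dennd2d on the opposite strand, and the counting was not stated to use strand.

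The choline branch opens with choline kinase. Chka (ENSMUSG00000024843, chr19:3851773-3894369) had 2.374, 3.391, 4.716, 3.161, 3.888 and 5.962 FPKM in CHOW1 to CHOW6. In HFD1 to HFD6 it had 2.066, 2.530, 3.743, 1.451, 1.706 and 2.385 FPKM. The groups overlapped, and all 6 HFD mice lay below the CHOW mean. The log2 fold change was -0.74 ± 0.24 (SE, adjusted p = 0.0406). This call stood near the threshold and was made in 8 of 22 alternative analyses, with adjusted p-values from 0.0149 to 0.126. It was not made without CHOW6 (-0.61, adjusted p = 0.0763) or without CHOW5 (-0.73, adjusted p = 0.0593). Leaving out any 1 of CHOW2 to CHOW4, HFD1, HFD2 or HFD4 to HFD6 also lost it, and over all 10 such mice the value ran from -0.79 to -0.61 with adjusted p from 0.0514 to 0.0865. Chkb (ENSMUSG00000022617, chr15:89426360-89429908) was too low to test, at 0.09074 ± 0.04424 FPKM in CHOW, 0.08126 ± 0.04534 in HFD and 0.09453 ± 0.05323 in SZ-A. Its level is also uncertain because 50.7% of its exon bases belong to Gm44502 on the same strand, a gene listed at 0 in all mice, and 10.5% to a gene on the opposite strand.

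Pcyt1a (ENSMUSG00000005615, chr16:32430921-32475070) makes CDP-choline and is the counterpart of Pcyt2. Its range was 6.732 to 12.28 FPKM in CHOW and 9.337 to 13.5 in HFD, and the ranges overlapped. The log2 difference was 0.24 ± 0.14 (SE, adjusted p = 0.226), and 0.13 without CHOW5. Chpt1 (ENSMUSG00000060002, chr10:88452745-88504073), which joins CDP-choline to diacylglycerol, had 33.96 to 44.35 FPKM in CHOW and 40.79 to 50.76 in HFD. All 6 HFD mice exceeded the CHOW mean, with a log2 difference of 0.22 ± 0.09 (SE, adjusted p = 0.0911). Neither passed the test.

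Pnpla7 (ENSMUSG00000036833, chr2:24976033-25054057) hydrolyses lysophosphatidylcholine toward glycerophosphocholine. CHOW1 to CHOW6 had 16.20, 19.48, 22.83, 21.81, 22.74 and 21.02 FPKM. HFD1 to HFD6 had 10.95, 11.10, 11.49, 10.42, 9.802 and 10.06 FPKM. The HFD mice formed a tight cluster below all CHOW mice, and the mean fell by 48.6%. The log2 fold change was -0.95 ± 0.09 (SE, adjusted p = 3.86e-05), -0.94 without CHOW6 (adjusted p = 0.00015) and -0.92 without CHOW5 (adjusted p = 7.14e-05). Lpcat3 (ENSMUSG00000004270, chr6:124663027-124704418), which places polyunsaturated acyl chains on lysophosphatidylcholine, ran from 25.54 to 30.89 FPKM in CHOW and from 18.68 to 37.05 in HFD. Its log2 difference was 0.02 ± 0.15 (SE, adjusted p = 0.936), 0.049 without CHOW5 and 0.045 without CHOW6, and its spread in HFD, an SD of 7.168 FPKM, was wider than the 2.755 FPKM in CHOW.

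The calls on Etnk2, Pcyt2 and Pnpla7 were made under all 23 alternatives. Among these, median-ratio scaling could change little, since its factors were 0.9958 to 1.003. Rescaling every mouse to a common FPKM sum moved the median log2 fold change of all genes from -0.03 to 0.15 and the genes called to 2100 higher and 334 lower. Under it Pcyt2 was at -0.47, Etnk2 at -0.84 and Pnpla7 at -0.75, while Cept1 (0.33, adjusted p = 0.0342) and Chpt1 (0.41, adjusted p = 0.0162) were called higher. Voom on whole fragments took each mouse's total of fragments on genes as its library size. It likewise moved the median of all genes, to 0.12, with 2010 genes called higher and 409 lower. Cept1 (0.30, adjusted p = 0.0263) and Chpt1 (0.38, adjusted p = 0.0132) were called higher with voom too. The part of this shift in those calls was not tested. Chka was not called under the common sum or voom.

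**Figure D2:**
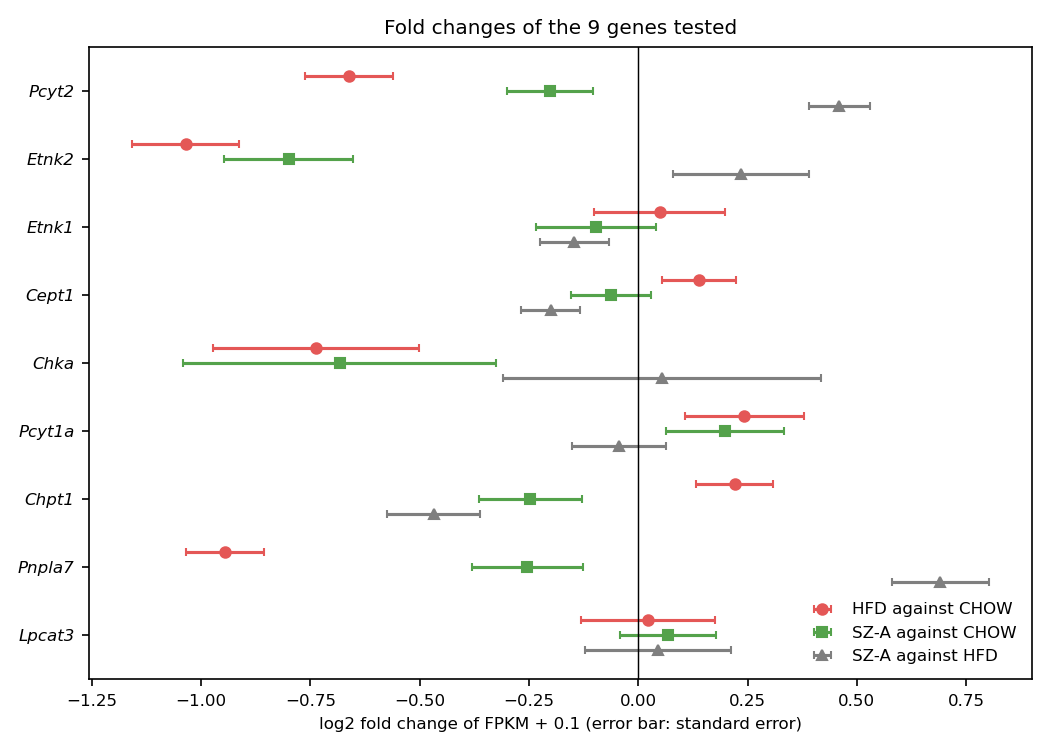
Log2 fold changes of FPKM + 0.1 (x axis) for the 9 tested genes (y axis), with standard errors as bars. Red circles are HFD against CHOW, green squares SZ-A against CHOW and grey triangles SZ-A against HFD, the last without a test. Etnk2 lies at -1.04 and -0.80 in the comparisons with CHOW, while Pcyt2 lies at -0.66 and -0.20 and Pnpla7 at -0.95 and -0.25.

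SZ-A was then set against HFD, which asks what the alkaloids changed under the high-fat diet. Pcyt2 had 63.52, 62.54, 65.52, 73.38, 60.89 and 65.64 FPKM in SZ-A1 to SZ-A6, all above the highest HFD mouse at 53.77, and its mean was 37.5% higher. The log2 difference was 0.46 ± 0.07 (SE), and 0.48 without SZ-A5. Pnpla7 had 16.70, 13.16, 16.25, 16.03, 22.73 and 19.97 FPKM, again all above the highest HFD mouse at 11.49. Its mean was 64.3% higher, at a log2 difference of 0.69 ± 0.11 (SE), and 0.61 without SZ-A5, which had the highest value. Chpt1 moved the other way, with 23.65 to 37.85 FPKM in SZ-A against 40.79 to 50.76 in HFD, no overlap and a log2 difference of -0.47 ± 0.11 (SE), or -0.38 without SZ-A5, the lowest mouse. Cept1 had 16.37 to 21.24 FPKM in SZ-A, overlapping HFD, at -0.20 ± 0.07.

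The calls that led to the choice of the genes were those of 2 of the 9 members, Pcyt2 and Pnpla7, both higher, where 0.147% of all genes were called (0.0783% higher and 0.0685% lower). No member was called without a filter, with a replicate block, or on leaving out HFD2, HFD4 or 1 SZ-A mouse (SZ-A6, SZ-A4, SZ-A3 or SZ-A1), and without HFD1 or HFD6 only Pcyt2 was. With the common-sum scaling or voom, Pnpla7 was called higher, Cept1 and Chpt1 lower, and Pcyt2 was not called. The groups did not overlap for 3 members, Pcyt2 and Pnpla7 higher and Chpt1 lower, where 1.28% of all genes did not overlap (0.793% higher and 0.489% lower). Since the choice used this contrast, nothing is read from either count, or from the calls on single members under the alternatives. Etnk2, at 44.33 to 88.77 FPKM in SZ-A, overlapped HFD, with a log2 difference of 0.24 ± 0.16. Chka was at 0.05 ± 0.36, Lpcat3 at 0.05 ± 0.17, Pcyt1a at -0.04 ± 0.11 and Etnk1 at -0.15 ± 0.08. Without SZ-A5 Chka turned to -0.26, Pcyt1a to 0.02, and Lpcat3 was at 0.11. Chka split the SZ-A mice: SZ-A5 had 7.156 FPKM and the other 5 had 1.172 to 2.539. Under the common-sum scaling the median log2 difference of all genes went from 0.03 to -0.15 and the genes called from 8 higher and 7 lower to 10 and 206, Pcyt2 to 0.28, Pnpla7 to 0.51 and Chpt1 to -0.65. With voom that median was -0.09.

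SZ-A against CHOW shows how far the treated mice stood from mice on the standard diet. Of the 9 members 1 was called, Etnk2, which was lower, against 9.6% of all genes (5.31% higher and 4.3% lower). Etnk2 had 67.75, 73.85, 62.37, 88.77, 44.33 and 59.41 FPKM in SZ-A1 to SZ-A6, all below the lowest CHOW mouse at 95.26. Its log2 fold change was -0.80 ± 0.15 (SE, adjusted p = 0.00615). It was -0.83 without CHOW6 (adjusted p = 0.00776), -0.82 without CHOW5 (adjusted p = 0.00831) and -0.69 without SZ-A5 (adjusted p = 0.00421). The ranges did not overlap for 1 member, against 5.5% of all genes (2.83% with SZ-A wholly higher and 2.67% with SZ-A wholly lower).

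Pcyt2 and Pnpla7 did not pass this test. The SZ-A mice also served in the contrast that brought both genes forward, so their SZ-A levels are not independent of the choice. Pcyt2 was at -0.20 ± 0.10 (SE, adjusted p = 0.213), and all 6 SZ-A mice lay below the CHOW mean. Without CHOW5 it was at -0.12 (adjusted p = 0.272), and 5 of 6 SZ-A mice lay below the mean of the other CHOW mice, 71.07 ± 5.014 FPKM (n = 5). For Pnpla7 the value was -0.25 ± 0.13 (SE, adjusted p = 0.232), with 5 of 6 SZ-A mice below the CHOW mean. These p-values do not show that the levels were equal. Chpt1 was at -0.25 ± 0.12 (SE, adjusted p = 0.209), and at -0.15 without SZ-A5. Pcyt1a was at 0.20 ± 0.13 (SE, adjusted p = 0.389), and at 0.09 without CHOW5. Chka was at -0.68 ± 0.36 (SE, adjusted p = 0.252) with SZ-A5 and at -1.0025 (adjusted p = 0.0219, called) without it, so 1 mouse decided that call. Etnk1 (-0.10), Cept1 (-0.06) and Lpcat3 (0.07) had adjusted p-values of 0.713 to 0.758. Without CHOW5 Etnk1 was at -0.23 (adjusted p = 0.043), under the fold of 1.2 and so not called, and without CHOW6 at -0.04. Cept1 was at -0.11 without CHOW5 and Lpcat3 at 0.13 without SZ-A5. The comparisons with CHOW share the CHOW mice, and the difference between them is that of SZ-A and HFD, which is described above without a test.

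Ratios within a mouse set enzymes against each other without regard to library scaling, and are given as a description. Pcyt2 over Pcyt1a, ethanolamine against choline cytidylyl transferase, was 8.032 ± 3.318 in CHOW, 4.084 ± 0.551 in HFD and 5.807 ± 0.8688 in SZ-A. The CHOW value was widened by CHOW5 at 14.65, whereas the other 5 CHOW mice ran from 5.73 to 7.601. HFD reached at most 4.848 and SZ-A began at 4.869, so these groups were adjacent without overlap. Pcyt2 was chosen by its difference between SZ-A and HFD, so nothing is read from this gap. Etnk2 over Etnk1 was 16.55 ± 4.732, 7.623 ± 1.247 and 10.09 ± 2.499 in the same order, and here SZ-A (6.785 to 14.17) overlapped both other groups. Chpt1 over Cept1 was 1.969 ± 0.1678, 2.084 ± 0.1587 and 1.758 ± 0.3559, with overlap throughout. Pcyt2 over Etnk2 was 0.6798 ± 0.1582 in CHOW, 0.8775 ± 0.1738 in HFD and 1.023 ± 0.2036 in SZ-A.

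**Figure D3:**
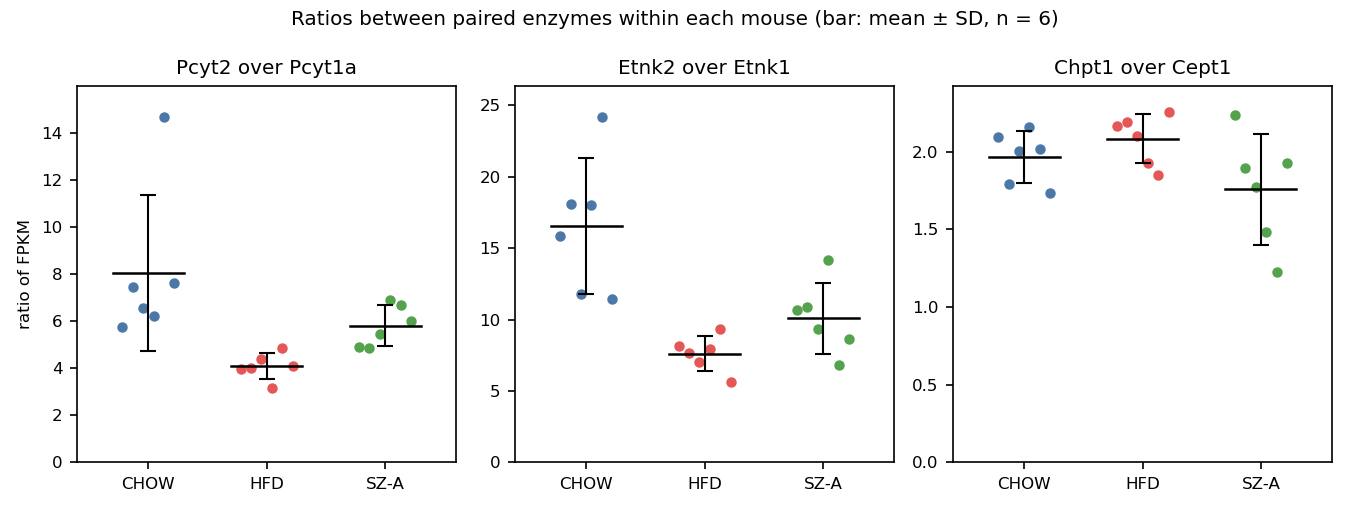
Ratios of FPKM (y axis, from 0) of Pcyt2 over Pcyt1a, Etnk2 over Etnk1 and Chpt1 over Cept1 within each of the 6 mice per group (x axis). Points are mice, bars mean ± SD. For Pcyt2 over Pcyt1a, HFD lies at 3.18 to 4.848, below CHOW and just below SZ-A, which begins at 4.869. Pcyt2 was chosen by its difference between SZ-A and HFD. Chpt1 over Cept1 overlaps in all groups.

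Other genes of the pathway were taken from 3 lists: other synthesis enzymes, acyl remodelling and breakdown, and uptake and choline oxidation. Among the 6 tested of 8 other synthesis enzymes, 0 were called higher and 2 lower in HFD than in CHOW, against 20.2% of all genes called, with a median log2 fold change of -0.06. The 2 were Etnppl and Selenoi, of which Etnppl, listed here for its place in the pathway, breaks phosphoethanolamine down rather than using it for synthesis. It had 33.51 ± 10.79 FPKM in CHOW, 6.684 ± 1.578 in HFD and 6.104 ± 1.284 in SZ-A. Its log2 fold change was -2.28 ± 0.22 (SE, adjusted p = 4e-05) in HFD and -2.40 ± 0.21 (SE, adjusted p = 6.59e-05) in SZ-A against CHOW. Selenoi, the ethanolamine-specific phosphotransferase, was at -0.39 ± 0.11 in HFD (SE, adjusted p = 0.0299), a call made in 12 of 23 alternatives and lost on leaving out CHOW1, CHOW2, CHOW3, CHOW6, HFD1, HFD4, HFD5 or HFD6 (adjusted p from 0.0503 to 0.0644). Pemt was at 101.2 ± 6.576 FPKM in CHOW, 100.8 ± 11.92 in HFD and 119.8 ± 10.43 in SZ-A. It was not called in the comparisons (HFD against CHOW -0.01, adjusted p = 0.943, SZ-A against CHOW 0.24, adjusted p = 0.0646, SZ-A against HFD 0.25, adjusted p = 0.213), but was called higher in SZ-A against CHOW without SZ-A5 (0.28, adjusted p = 0.0281) and with voom (0.28, adjusted p = 0.0321). Ptdss1 (0.17, adjusted p = 0.121), Ptdss2 (-0.11, adjusted p = 0.51) and Pisd (0.00, adjusted p = 0.996), which supply phosphatidylserine and decarboxylate it to phosphatidylethanolamine, were not called in HFD. Pcyt1b, at 0.03126 FPKM in CHOW, was too low to test.

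In acyl remodelling and breakdown, 13 of 23 genes could be tested, 2 were called higher and 2 lower in HFD, against 20.2% of all genes called, and the median was 0.06. With voom 2 of the 13 were called. Pla2g6 (0.79, adjusted p = 0.0112) and Pla2g15 (0.50, adjusted p = 0.0168), both phospholipases, were higher. Gpcpd1 (-0.56, adjusted p = 0.0359), which cleaves glycerophosphocholine, and the lysophospholipase Lypla2 (-0.37, adjusted p = 0.0484) were lower, but the calls were made in 11 and 6 of 23 alternatives. Leaving out 1 mouse lost the call on Gpcpd1 for CHOW1, CHOW2, CHOW4, HFD1, HFD3, HFD4 and HFD6, and the call on Lypla2 for every CHOW or HFD mouse but CHOW4, with adjusted p up to 0.0749 and 0.0957. Against CHOW, limma called 0 of the 13 in SZ-A, with 4 at an unadjusted p under 0.05, and voom called 0. In uptake and choline oxidation, 2 of the 8 tested genes reported here were called lower in HFD, with a median of -0.002 over the 8, and 4 were called with voom. The 2 of 8 lie near the 20.2% of all genes called. Bhmt, which uses betaine to remethylate homocysteine, fell from 1344 ± 318.4 to 595.1 ± 220.5 FPKM (log2 -1.23, adjusted p = 0.0028), and Dmgdh was at -0.36 (adjusted p = 0.0434, called in 8 of 23 alternatives and lost without any 1 mouse but HFD3 or HFD5, with adjusted p up to 0.094). In SZ-A against CHOW Bhmt (-0.86, adjusted p = 0.0075) was called as well. Between SZ-A and HFD, limma called 0 of the 27 tested genes of the 3 lists, with 2 at an unadjusted p under 0.05, and voom called 0, with 5.

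**Figure D4:**
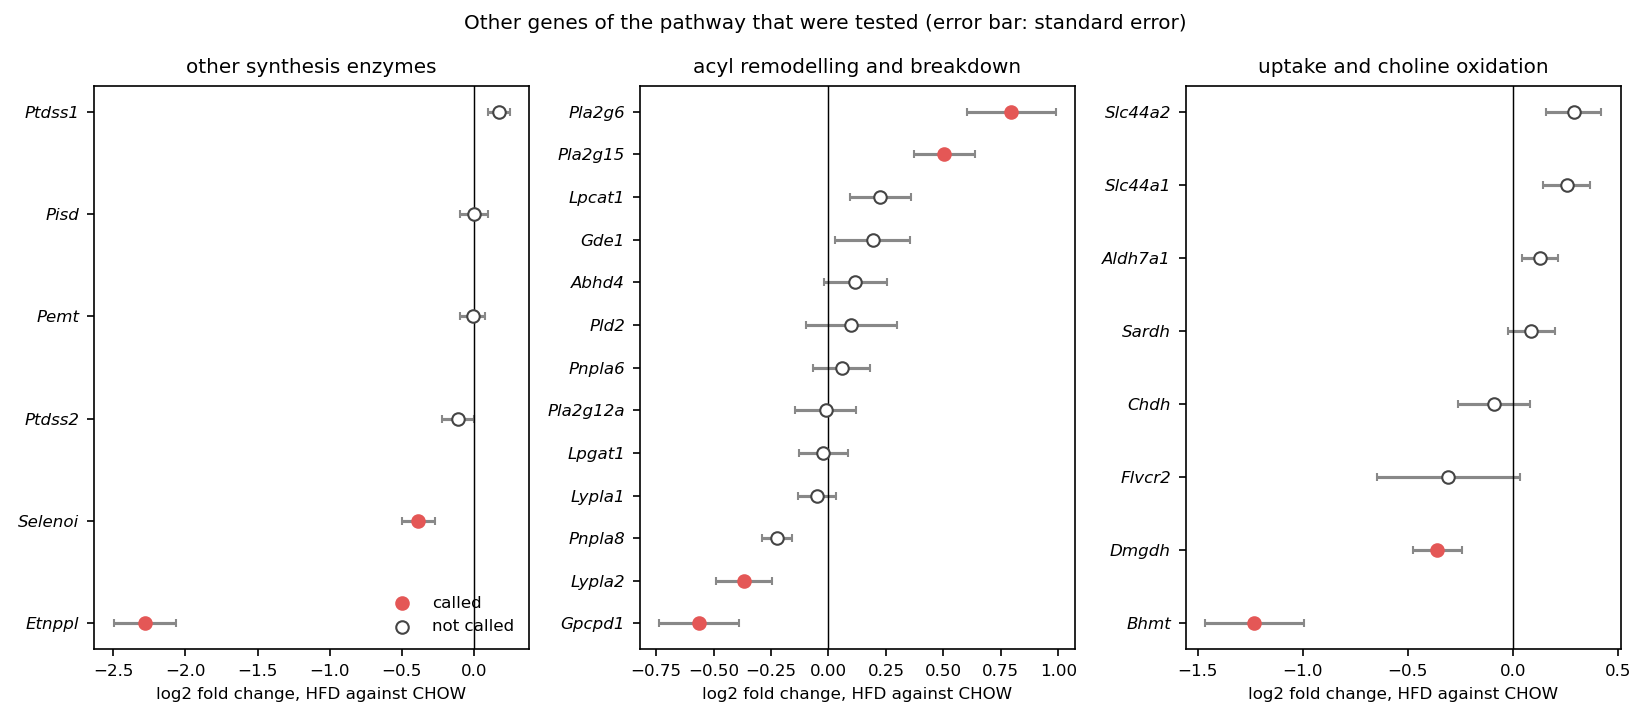
Log2 fold change of HFD against CHOW (x axis, with standard error bars) for the tested genes reported from the 3 further lists (y axis). Filled points were called and open points were not; Etnppl at -2.28 and Bhmt at -1.23 lie farthest to the left, Pla2g6 at 0.79 farthest to the right.

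The genes whose levels followed Pcyt2 most closely over the 18 mice, by Pearson r of log2(FPKM + 0.1), were Nop53 (0.931), Rbp4 (0.922), Apoa1 (0.899), Apoc4 (0.899) and Naxd (0.895). After subtraction of group means r was 0.849, 0.644, 0.635, 0.567 and 0.731. Pnpla7 came at rank 17 with 0.866, and at 0.276 after the group means were removed. For Pnpla7 the closest were Pja1 (0.930), Grb14 (0.921), Chrna2 (0.916), Ubtf (0.908) and Apom (0.906). With group means subtracted, these were at 0.644, 0.672, 0.656, 0.823 and 0.493. Pcyt2 came at rank 24. Both genes were chosen by their differences between SZ-A and HFD, so their likeness over the mice is not independent of the choice. All these values share the libraries and the group differences, and describe likeness in pattern alone.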

How the data were processed

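Liver RNA of 18 mice was sequenced by the authors from poly-A libraries as paired 150-base reads, aligned with HISAT2 2.0.5 to mm10 and counted with featureCounts 1.5.0-p3, and they deposited FPKM per gene. The FPKM values equalled whole fragments in 100% of cases (tolerance 0.05), with a library size of 0.9325 to 1.1414 times the fragments on genes. All value columns matched a mouse. The 10216 genes that averaged 1 FPKM or more over all mice were tested on log2(FPKM + 0.1) with limma 3.58.1 in R 4.3.3 (moderated test with mean trend, 2 groups per fit, Benjamini-Hochberg adjustment), and called at adjusted p under 0.05 and fold over 1.2. The pseudocount understates folds of low genes. The authors' own test was not repeated. The members, lists and tests were chosen with earlier results of these data known. All 10 members were named, with up to 4 called genes per further list and 6 set genes. Of the listed symbols, Plaat3 was found as Pla2g16, and 1 gene of the uptake list is not reported here and is left out of that list's counts. P-values cover the spread between mice only. Alternatives were another pseudocount, filter, scaling, fit or voom, and leaving out each mouse. A limma fit of the main form was tried on simulated counts. Figures used matplotlib 3.10.9.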

Additional observations from a re-analysis of the deposited data

Results flagged for a closer look

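In CHOW5, Pcyt2 was at 98.59 FPKM, with a gap to the next CHOW mouse of 0.655 of the group's range. Chka in SZ-A5 was at 7.156 FPKM, with a gap of 0.771 of the range. Both exceed Dixon's critical value of 0.625 for 6 samples. In all, 30 groups of 6 mice were examined, and chance marks about 1 in 20. Both mice also stood apart from their groups over all genes.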

How the results depend on the processing

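Etnk2, Pcyt2 and Pnpla7 stayed called lower in HFD than in CHOW in all 23 alternatives, and Etnk2 in SZ-A against CHOW likewise. Median-ratio scaling could change little here, since the values already lay close to that scale. In the comparisons with CHOW, with 206 alternative values of the 9 members each, 14 values lost and 5 gained a call. Changes of calls in SZ-A against HFD are not in these counts. They are given with that contrast above, except that sample weights also called Chpt1 lower there. Nothing is read from them, since the choice used that contrast. Over the 618 alternative values of all 3 comparisons 20 turned sign, 7 in HFD against CHOW and 13 in SZ-A against HFD. Of the 7, Etnk1 in HFD against CHOW went to -0.0833 with sample weights and to -0.0879 without CHOW5, and Lpcat3 went below 0 without CHOW1, CHOW3, CHOW4, HFD1 or HFD2. On leaving out 1 mouse, Etnk1 ranged from -0.0879 to 0.1094 and Lpcat3 from -0.0532 to 0.1436. The 13 were 6 of Chka (lowest -0.2646, without SZ-A5), 6 of Lpcat3 (lowest -0.132, at a common sum) and 1 of Pcyt1a (0.0174, without SZ-A5). The cause was not tested. Genes called in HFD against CHOW numbered 2062, and 1271 among genes averaging 5 FPKM or more, where fewer were tested. In SZ-A against CHOW, 981 became 564 without a filter, 1682 with sample weights, and 601 to 1179 on leaving out 1 mouse (601 without SZ-A3, 629 without SZ-A6). Members called there were 1 to 2, with 2 without SZ-A5. In SZ-A against HFD, 15 became 26 at the higher filter, 216 at a common sum, 35 in 1 fit of all mice, 233 with sample weights and 68 with voom (12 higher, 56 lower). With limma it became 0 without a filter (2741 genes at an unadjusted p under 0.05). Leaving out 1 mouse gave 2 to 49 genes: 4 without HFD1 or SZ-A3, 3 without HFD2 or SZ-A4, 2 without HFD4 or SZ-A6, 6 without SZ-A1, 45 without HFD5, 49 without SZ-A2 and 31 without SZ-A5. Deviations of same-numbered mice had r from -0.12 to 0.29 (18 pairs), and 5 of 18 mice were closest to their own number. The sources name no pairing, and this check cannot exclude one. With a replicate block, limma called 1647, 922 and 0 genes in the 3 comparisons (the last with 1492 at an unadjusted p under 0.05), and the 4 members in HFD against CHOW remained 4 in number. Voom called 2419 genes in HFD against CHOW, 2010 higher and 409 lower. Chkb, at 2 to 10 fragments per mouse, had too few to compare, and its level is uncertain because it shares exon bases with other genes.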
